A study of Mus musculus with 32 samples.

Results

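The 10 genes described here are maternal-effect genes of the mouse oocyte. Nlrp5, Ooep, Tle6, Khdc3, Padi6, Nlrp2 and Zbed3 encode proteins of, or associated with, the subcortical maternal complex, and Zar1, Npm2 and Nlrp14 are other genes whose products the oocyte supplies to the embryo. They were taken as a list of named genes, and each was found by gene identifier among the 55385 genes quantified in the total RNA libraries. All 10 had at least 10 counts summed over the libraries of every comparison and averaged 1 FPKM or more in every group. FPKM is a count of fragments scaled to transcript length and to the mapped fragments of the library.

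Total RNA-seq was performed on B6D2F1/J × B6D2F1/J embryos, which were wild type and fertilized in vitro with gametes from mice 6 to 8 weeks old, and time is given in hours after sperm were added to the oocytes (hpi). Zygotes and embryos at the early and the late 2-cell stage were cultured with DMSO or with 10 µM A-485, which blocks the catalytic activity of the acetyltransferases CBP and p300, from 4 to 20 hpi, so that late 2-cell embryos of the A-485 group had been washed free of it. In a separate experiment, late 2-cell embryos had received DMSO or 50 nM TSA, an inhibitor of histone deacetylases, from 8 to 28 hpi. Each of the 8 groups had 2 libraries. The titles of the early 2-cell libraries have the form of those of the TSA experiment. Titles of the zygote libraries and of the late 2-cell libraries of the A-485 experiment have another form, which may mark another set. Comparisons of early 2-cell with zygotes or with late 2-cell embryos of the A-485 experiment cross these forms. In them, stage and set cannot be told apart. The number of embryos in a library is not given in the sources used here, and no label says that the libraries of a group came from separate cultures, so the p-values measure the spread between these libraries, which may be technical. For the promoters of the 10 genes, ATAC-seq peaks were used from late 1-cell and from early 2-cell embryos, each with DMSO or A-485.

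The subcortical maternal complex is a protein assembly that builds up in the growing oocyte, lies beneath the plasma membrane of the egg and cleavage-stage embryo, and is needed for development beyond the first cleavages. Its messenger RNAs are made in the oocyte. They belong to the maternal RNAs that the embryo clears while its own genome becomes active, in a minor wave around the 1-cell stage and a major wave at the late 2-cell stage. The rate of clearance of a maternal RNA depends in part on its 3′ end: the cytoplasmic polyadenylation element (CPE), bound by CPEB proteins, and the polyadenylation hexamer govern the length of the poly(A) tail in oocytes.

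The 3′ ends are shown as a description, chosen after Zbed3 had been seen to differ from the other 9 genes in its course over the stages. The early rise of Zbed3 depends on the scaling, as given below. Whether these letters bear on the course of any of the genes was not tested. The CPE was searched as TTTTAT or TTTTAAT, the hexamer as AATAAA or ATTAAA, on the sense strand of the last 100 bases of the annotated transcript with the longest coding part of each gene. Each line below gives the last 30 bases from 5′ to 3′ as DNA letters of the transcript (GENCODE M21, GRCm38), with capitals for hexamers and CPEs.
Nlrp5: gaatgaAATAAAcacagcatttagaaaagc
Tle6: agttgcgtgtAATAAAacaattgaaatggc
Padi6: agagccAATAAAgcatggtattctgaatgt
Npm2: ctagggccacAATAAAatttgcatgatcag
Ooep: aactcaggaccacaggctatgagtagcata
Zbed3: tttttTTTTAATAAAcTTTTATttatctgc
A CPE was found in Zbed3 alone among the 10 genes, against 17.7% of 19214 annotated transcripts, and the first of its 2 CPE matches overlaps the hexamer. A hexamer was found in 8 of the 10 genes, against 77.6% of transcripts, and was not in this window of Ooep or Nlrp14. The AU-rich element TATTTAT was found in Ooep and Zbed3, where it overlaps a CPE, and in 4.29% of all transcripts. The Pumilio element TGTANATA was found in none of the 10 genes and in 4.25% of transcripts. These matches describe letters and not sites in use. The 3′ UTR was between 112 bases (Nlrp5) and 1449 bases (Ooep) long, that of Zbed3 was 1088 bases, and 8 of the 10 were shorter than the median of all transcripts, 737 bases.

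The libraries held between 13206200 and 32586000 expected counts. The 2 libraries of a group differed by more than counting error (chi-square over its degrees of freedom 8.99 to 18.0), and having 2 of them is what limits precision here. Levels are shares of a library with no spike-in, so fewer embryos and less RNA per embryo cannot be told apart. Messenger RNA encoded by the mitochondrial genome took 0.795% to 1.06% of counts in zygotes, 2.24% to 2.71% in 2-cell embryos without TSA or late A-485 treatment, 5.35% to 5.43% in late 2-cell A-485-treated embryos and 3.66% to 3.72% in TSA-treated embryos. Groups were tested on expected counts by edgeR (quasi-likelihood, TMM scaling), with Benjamini-Hochberg adjustment over all genes tested. A gene was called if its adjusted p was below 0.05, it changed 2-fold or more, and it averaged 1 FPKM or more in a compared group. Counts that pass the adjusted p with no fold cutoff are given separately.

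Zbed3 was by far the most abundant of the 10 transcripts. It took 0.976% to 1.03% of all counts in DMSO zygotes, 1.55% to 1.60% in DMSO early 2-cell embryos and 0.284% to 0.330% in late 2-cell DMSO embryos of both experiments. By mean FPKM it ranked 2 of 21897 protein-coding genes in zygotes and early 2-cell embryos of either treatment, 10 in late 2-cell embryos of the A-485 experiment and 13 in those of the TSA experiment. In DMSO zygotes Npm2 ranked 54, while Khdc3 ranked 3027 and Nlrp2 4083.

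**Figure D1:**
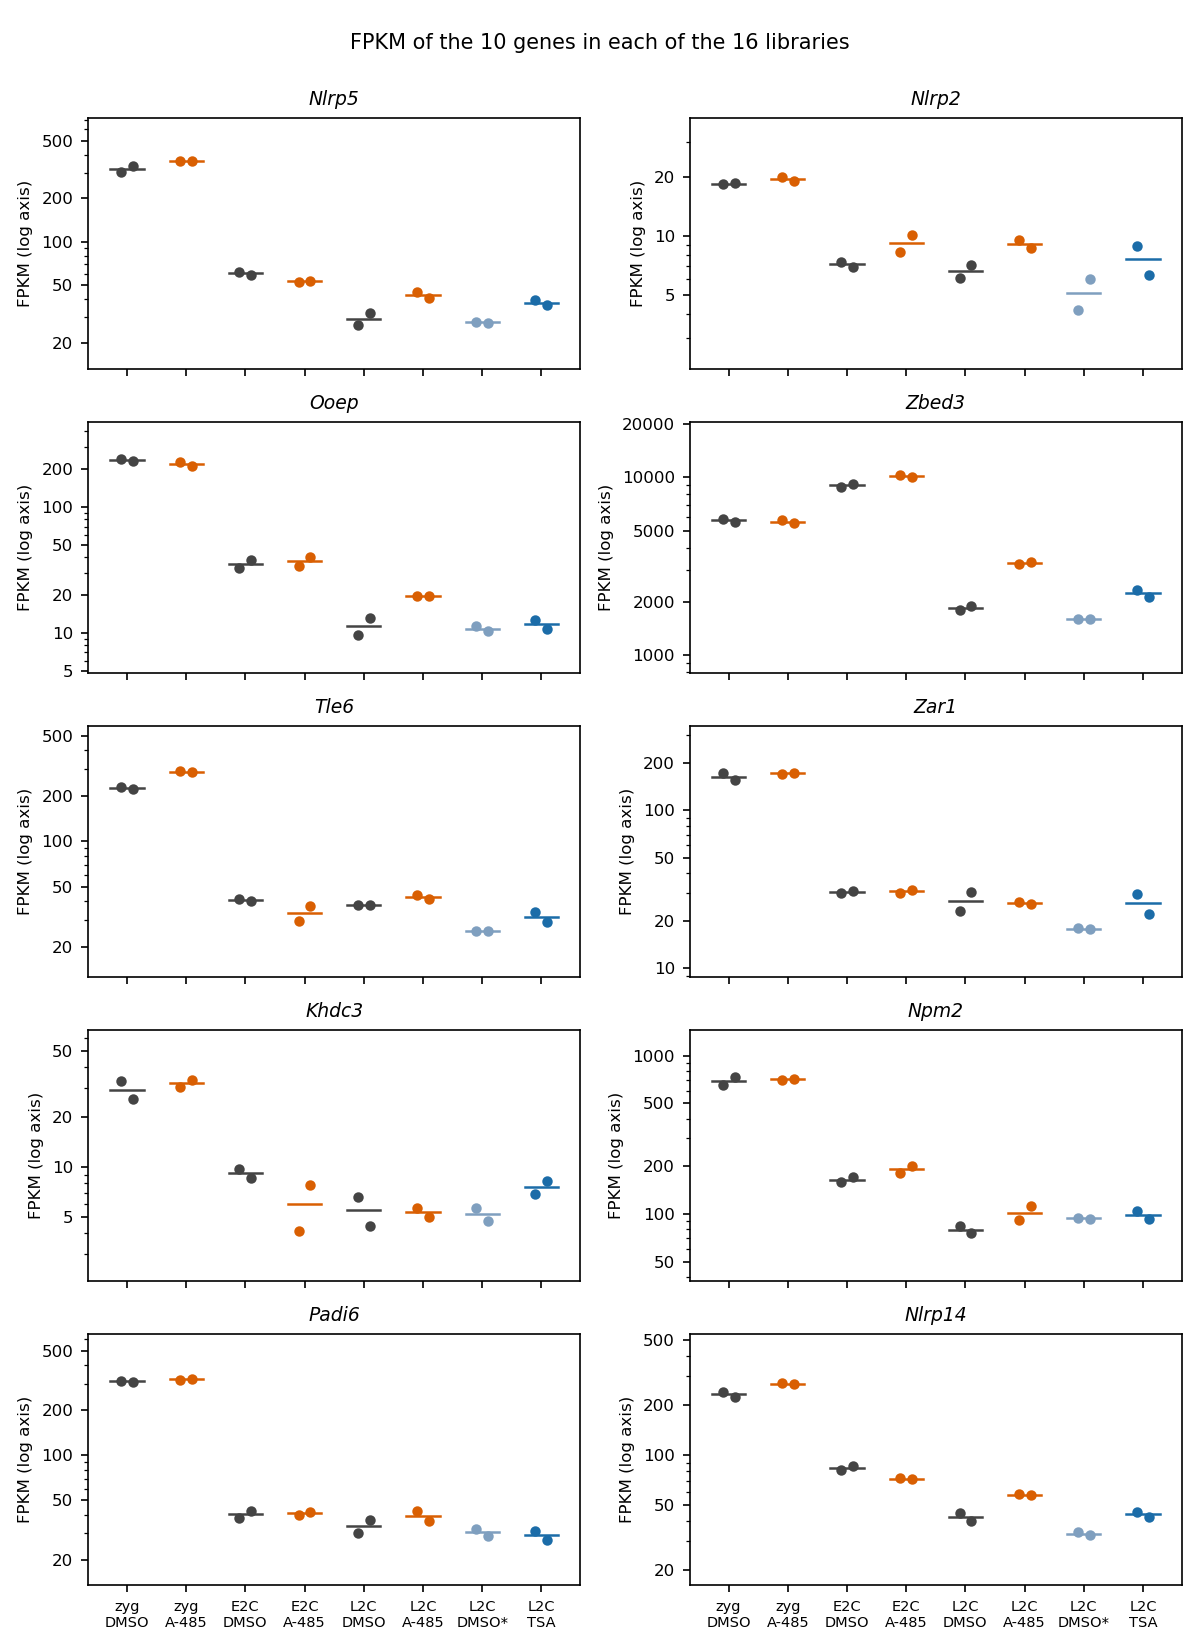
FPKM of each of the 10 genes (log axis) in the 16 RNA libraries, with zyg for zygote, E2C and L2C for early and late 2-cell, and an asterisk for the DMSO group of the TSA experiment. Points are libraries and lines the mean of 2. In this plot 9 of the genes have their 4 highest libraries in zygotes, and Zbed3 has its 4 highest in early 2-cell embryos, an order that is on the FPKM scale and depends on the scaling.

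Nlrp5, also known as Mater, is an NLR-family protein of the core complex (chromosome 7, 23385889 to 23441922, plus strand, GRCm38). Its FPKM was 306 and 336 in the 2 DMSO zygote libraries, 360.4 and 363 in A-485 zygotes, 61.5 and 59.05 in DMSO early 2-cell embryos and 52.7 and 53.8 in A-485 early 2-cell embryos. At late 2-cell it was 26.3 and 32.2 with DMSO and 44.9 and 40.5 after A-485, and in the TSA experiment 27.9 and 27.3 with DMSO and 39.4 and 36.35 with TSA. On the FPKM scale both late 2-cell inhibitor groups lay above both late DMSO groups, and the late DMSO groups of the 2 experiments overlapped. With scaling to mitochondrial messenger RNA, Nlrp5 was lower than DMSO in both inhibitor groups, with TSA short of the adjusted p.

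Ooep, also known as Floped, is a small KH-domain-like protein of the core complex (chromosome 9, 78376109 to 78378725, minus strand). Its FPKM was 239.7 and 232 in DMSO zygotes, 228 and 214 in A-485 zygotes, 32.9 and 38.2 in DMSO early 2-cell embryos and 33.8 and 40.4 in A-485 early 2-cell embryos. Late 2-cell values were 9.65 and 13.1 with DMSO, 19.8 and 19.8 after A-485, 11.3 and 10.4 with DMSO of the TSA experiment and 12.8 and 10.8 with TSA. The A-485 group stood apart at late 2-cell, and the other 3 late groups overlapped with their neighbors in order.

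Tle6, a protein of the Groucho/TLE family, is the third core subunit (chromosome 10, 81590904 to 81601073, minus strand). Its FPKM was 229.7 and 221 in DMSO zygotes, 291 and 286 in A-485 zygotes, 41.4 and 39.9 in DMSO early 2-cell embryos and 29.5 and 37.4 in A-485 early 2-cell embryos. At late 2-cell it was 37.9 and 37.7 with DMSO, 44.1 and 41.2 after A-485, 25.2 and 25.3 with DMSO of the TSA experiment and 33.7 and 29.3 with TSA. Early and late 2-cell levels lay close together, and early 2-cell A-485 overlapped with TSA. The FPKM of Tle6 also depends on its effective length as RSEM estimated it, which lay between 821 and 1270 bases over the 16 libraries, so that the counts and the FPKM moved by different amounts.

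Khdc3, also known as Filia, is a KH-domain protein that joins the complex (chromosome 9, 73101836 to 73104438, plus strand). Its FPKM was 32.7 and 25.5 in DMSO zygotes, 30.1 and 33.5 in A-485 zygotes, 9.71 and 8.6 in DMSO early 2-cell embryos and 4.13 and 7.79 in A-485 early 2-cell embryos. Late 2-cell values were 6.61 and 4.45 with DMSO, 5.7 and 5.01 after A-485, 5.64 and 4.76 with DMSO of the TSA experiment and 6.87 and 8.21 with TSA. The 2 zygote groups overlapped, and from TSA downward every group overlapped with the next in order. It had the fewest counts of the 10 genes, from 85 to 249 in 2-cell libraries, and the largest uncertainty of assignment, up to 4.79% of a count.

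Padi6, a member of the peptidylarginine deiminase family that is needed for the cytoplasmic lattices of the oocyte (chromosome 4, 140727355 to 140742643, minus strand), had FPKM values of 315 and 311 in DMSO zygotes, 321 and 326 in A-485 zygotes, 37.9 and 42.7 in DMSO early 2-cell embryos and 40.02 and 41.7 in A-485 early 2-cell embryos. At late 2-cell the FPKM was 30.1 and 37.0 with DMSO, 42.7 and 36.4 after A-485, 32.2 and 28.95 with DMSO of the TSA experiment and 31.1 and 27.1 with TSA. The zygote groups stood apart from all 2-cell groups, each of which overlapped with its neighbor in order.

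Nlrp2, an NLR-family protein found with the complex in oocytes (chromosome 7, 5298547 to 5351035, minus strand), was the lowest of the 10 in zygotes. Its FPKM was 18.3 and 18.4 in DMSO zygotes, 19.99 and 19.1 in A-485 zygotes, 7.31 and 6.94 in DMSO early 2-cell embryos and 8.25 and 10.1 in A-485 early 2-cell embryos. In late 2-cell embryos it was 6.06 and 7.12 with DMSO, 9.44 and 8.6 after A-485, 4.19 and 6.02 with DMSO of the TSA experiment and 8.87 and 6.27 with TSA. From early 2-cell A-485 down to late 2-cell DMSO of the A-485 experiment, every group overlapped with the next in FPKM. The effective length of Nlrp2, as RSEM estimated it, lay between 2157 and 3260 bases. As for Tle6, counts and FPKM therefore moved by different amounts. Mean FPKM was 7.125 in DMSO early 2-cell embryos and 6.59 in late 2-cell DMSO embryos of the A-485 experiment. The mean shares of all counts were 0.00229% and 0.00146%. Early 2-cell A-485 embryos had a mean FPKM of 9.165 and a mean share of 0.00244%. Nlrp2 lies over Gm5065 on the other strand, which reached 29.05 FPKM. Whether counting used strand is not given in the sources used here, so the reads of this pair may not be separated. Over annotated transcripts, the uncertainty of assignment by RSEM was at most 0.126% of a count for Nlrp2.

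Zbed3, a zinc-finger BED-domain protein that binds the complex (chromosome 13, 95323612 to 95337841, plus strand), followed another course. Its FPKM was 5853 and 5572 in DMSO zygotes, 5727 and 5498 in A-485 zygotes, 8854 and 9134 in DMSO early 2-cell embryos and 10269 and 9986 in A-485 early 2-cell embryos. Late 2-cell embryos had 1781 and 1889.8 with DMSO, 3272 and 3349 after A-485, 1589.8 and 1606 with DMSO of the TSA experiment and 2312 and 2126 with TSA. Only the 2 zygote groups overlapped, and the early 2-cell A-485 group was the highest. Zbed3 overlaps the snoRNA genes Snora47 and Gm22661 on the same strand. Snora47 reached 5734 FPKM over an effective length of 2.82 to 20.1 bases. The counts assigned to Snora47 were at most 3.01% of those of Zbed3 in a library and those assigned to Gm22661 at most 0.051%. The uncertainty of assignment by RSEM was at most 3.9e-05% of a count for Zbed3. That measure covers annotated transcripts only, and other RNA of the 3 genes was not examined.

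Zar1, an RNA-binding protein of maternal messenger RNA stores (chromosome 5, 72576806 to 72581254, minus strand), had FPKM values of 172 and 155 in DMSO zygotes, 171 and 172 in A-485 zygotes, 29.8 and 31.0 in DMSO early 2-cell embryos and 30.05 and 31.4 in A-485 early 2-cell embryos. At late 2-cell the FPKM was 23 and 30.4 with DMSO, 26.4 and 25.7 after A-485, 17.9 and 17.65 with DMSO of the TSA experiment and 29.6 and 22.1 with TSA. Late 2-cell DMSO of the TSA experiment stood below all other groups, and the 5 groups above it in 2-cell embryos overlapped one with the next.

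Npm2, nucleoplasmin, is a histone chaperone of the oocyte that takes part in remodeling sperm chromatin (chromosome 14, 70647302 to 70659244, minus strand). Its FPKM was 653 and 731 in DMSO zygotes, 701 and 716 in A-485 zygotes, 159 and 170.5 in DMSO early 2-cell embryos and 182 and 202 in A-485 early 2-cell embryos. In late 2-cell embryos it was 83.4 and 75.3 with DMSO, 91.2 and 112 after A-485, 94.7 and 93.4 with DMSO of the TSA experiment and 104 and 93.1 with TSA. The A-485, TSA and TSA-experiment DMSO groups of late 2-cell overlapped, and the DMSO group of the A-485 experiment lay below them. Npm2 overlaps Xpo7, which runs on the same strand and reached 40.4 FPKM. The uncertainty of assignment by RSEM was at most 0 for Npm2. That measure covers annotated transcripts only, and whether other RNA of Xpo7 was counted here was not tested.

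Nlrp14, an oocyte-enriched NLR-family gene (chromosome 7, 107166990 to 107198102, plus strand), had FPKM values of 240.5 and 225 in DMSO zygotes, 271 and 269.8 in A-485 zygotes, 80.7 and 86.4 in DMSO early 2-cell embryos and 72.1 and 71.9 in A-485 early 2-cell embryos. At late 2-cell the FPKM was 44.5 and 39.9 with DMSO, 57.7 and 57.4 after A-485, 34.1 and 32.7 with DMSO of the TSA experiment and 45.2 and 42.1 with TSA. TSA overlapped with late 2-cell DMSO of the A-485 experiment, and every other pair of neighbors in order was separate.

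The first comparison followed the transcripts over the stages in control embryos. From DMSO zygotes to DMSO early 2-cell embryos, 9 of the 10 genes fell and were called lower, while 14.9% of the 20106 genes tested were called lower and 11.2% higher. The median log2 fold change of the 10 genes was -2.17, against 0.08 for all genes tested. Padi6 fell 7.27-fold (log2 fold change -2.86 ± 0.08 SE, adjusted p = 2.9e-11), and Ooep fell 6.24-fold (-2.64 ± 0.09). Tle6 fell 5.58-fold (-2.48 ± 0.11), Zar1 fell 5.33-fold (-2.41 ± 0.10) and Nlrp5 fell 5.13-fold (-2.36 ± 0.08). Npm2 (-1.98 ± 0.09), Khdc3 (-1.57 ± 0.17), Nlrp14 (-1.42 ± 0.07) and Nlrp2 (-1.27 ± 0.13) fell by less. The same 9 were called lower with scaling to total counts and to mitochondrial messenger RNA, where 16.2% and 40.8% of all genes were.

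Zbed3 went the other way in this step. It was 1.68-fold higher in DMSO early 2-cell embryos (log2 fold change 0.75 ± 0.04 SE, adjusted p = 1.8e-08), under the fold cutoff, and with scaling to mitochondrial messenger RNA it was lower instead (-0.58 ± 0.16, adjusted p = 0.0024). With no fold cutoff, 9 of the 10 genes were lower and 1 was higher at an adjusted p under 0.05, against 23.4% and 22.7% of all genes tested.

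From DMSO early 2-cell to late 2-cell embryos of the A-485 experiment, 4 of the 10 genes were called lower and 0 higher, against 8.92% and 15.9% of the 20326 genes tested. They were Zbed3, which fell 4.92-fold (log2 fold change -2.30 ± 0.06 SE, adjusted p = 5.9e-09), Ooep (-1.66 ± 0.18), Npm2 (-1.06 ± 0.13) and Nlrp5 (-1.03 ± 0.13). Nlrp14 (-0.96 ± 0.13, adjusted p = 8.8e-05) and Nlrp2 (-0.65 ± 0.20, adjusted p = 0.026) also passed the adjusted p, which 15.6% of all genes did as lower and 20.6% as higher. For Khdc3 (-0.84 ± 0.31), Padi6 (-0.28 ± 0.14), Zar1 (-0.25 ± 0.19) and Tle6 (-0.14 ± 0.18) the adjusted p was between 0.054 and 0.59. Thus Padi6, Zar1 and Tle6 had completed 90.15%, 89.2% and 93.3% of their fitted log2 fall from zygote to late 2-cell by the early 2-cell stage, and Nlrp14 and Ooep 58.9% and 60.9%. This step and the one before share the early 2-cell libraries, whose titles differ in form from those of the zygote and these late 2-cell libraries.

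Over the whole interval from DMSO zygotes to late 2-cell embryos, all 10 genes fell and were called lower, against 19.7% of the 20253 genes tested called lower and 19.7% called higher. With no fold cutoff the shares of all genes were 26.5% lower and 28.4% higher. Ooep fell the most, 20.2-fold (log2 fold change -4.33 ± 0.14 SE, adjusted p = 9.2e-10), and Zbed3 the least, 3.01-fold (-1.59 ± 0.08). Between them stood Nlrp5 (-3.42), Padi6 (-3.18), Npm2 (-3.08), Zar1 (-2.71), Tle6 (-2.66), Khdc3 (-2.44), Nlrp14 (-2.41) and Nlrp2 (-1.95). In CPM, the total-scaled counts with no length correction, the 9 genes other than Zbed3 were at 12.9% to 39.0% of their zygote level at early 2-cell and at 4.80% to 24.9% at late 2-cell. Zbed3 was at 157% and 32.0%.

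**Figure D2:**
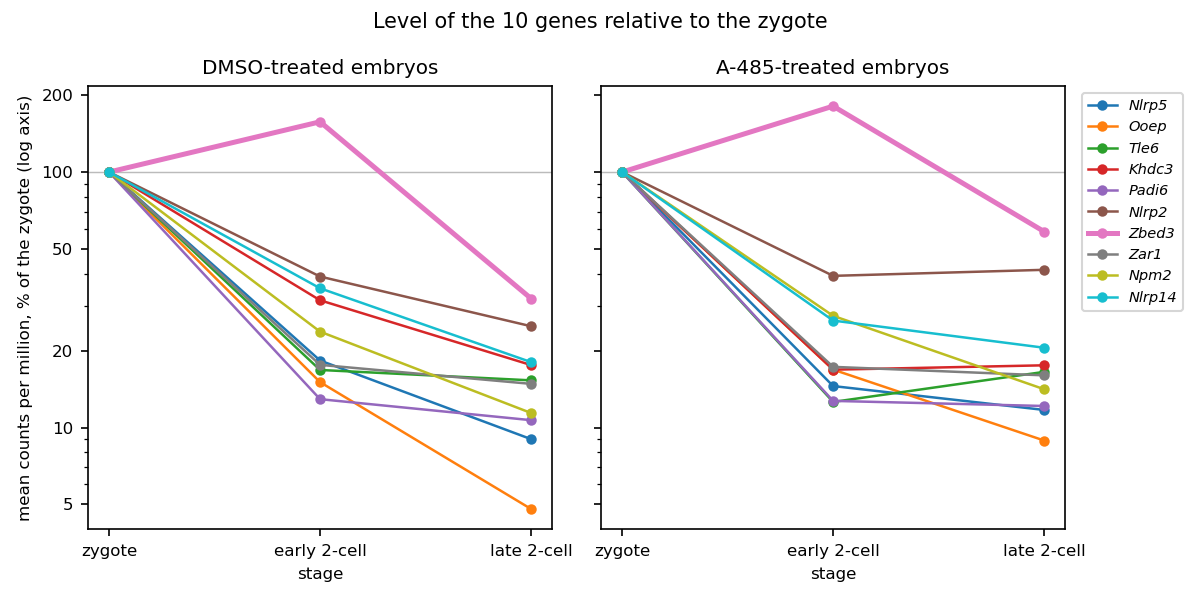
Mean CPM (total-scaled counts) of each gene (2 libraries per point) as a percent of the zygote of the same treatment, on a log axis, in DMSO-treated (left) and A-485-treated (right) embryos. Zbed3, the thick line, is at 157% and 181% at early 2-cell, a rise that turns into a fall with scaling to mitochondrial messenger RNA, and the other 9 genes are between 12.6% and 39.2% there.

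The same course was measured in A-485-treated embryos. From A-485 zygotes to A-485 early 2-cell embryos, the same 9 genes were called lower and Zbed3 was called higher, against 15.6% and 6.85% of the 19858 genes tested. With no fold cutoff the shares of all genes were 23.5% lower and 22.5% higher. Tle6 (log2 fold change -2.80 ± 0.10 SE), Padi6 (-2.78 ± 0.07) and Nlrp5 (-2.59 ± 0.06) fell the most, followed by Ooep (-2.38), Khdc3 (-2.38), Zar1 (-2.34), Nlrp14 (-1.74), Npm2 (-1.68) and Nlrp2 (-1.16). Zbed3 rose 2.07-fold (1.05 ± 0.04, adjusted p = 1.0e-09), under the fold cutoff with scaling to total counts (0.86), and lower with scaling to mitochondrial messenger RNA (-0.65). The median of all genes tested was 0.14 in this fit.

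From early to late 2-cell embryos of the A-485 group, 3 genes were called lower, Zbed3 (log2 fold change -1.92 ± 0.05 SE), Npm2 (-1.24 ± 0.12) and Ooep (-1.21 ± 0.14), against 7.15% lower and 12.8% higher among the 22854 genes tested. Nlrp14 (-0.64 ± 0.10), Nlrp5 (-0.60 ± 0.10) and Padi6 (-0.35 ± 0.12) passed the adjusted p with no fold cutoff, as did 15.4% of all genes as lower and 16.6% as higher. The values were -0.40 ± 0.17 for Zar1, -0.23 ± 0.39 for Khdc3, -0.21 ± 0.20 for Nlrp2 and 0.11 ± 0.17 for Tle6, with adjusted p between 0.083 and 0.70, and Tle6 was at -0.81 with scaling to mitochondrial messenger RNA. This count rests on the scaling: it was 1 with total counts and 9 with mitochondrial messenger RNA, against 4.23% and 27% of all genes called lower, and the median of all genes tested was 0.31, 0.59 and -0.59 under the 3 scalings.

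From A-485 zygotes to A-485 late 2-cell embryos, 9 genes were called lower, against 18.1% lower and 19.6% higher among the 22573 genes tested. Zbed3 fell 1.76-fold (log2 fold change -0.82 ± 0.04 SE, adjusted p = 1.4e-07), under the fold cutoff, and with no such cutoff all 10 were lower, against 23.8% of all genes lower and 33.0% higher. Ooep fell 11.6-fold (-3.53 ± 0.09), and Nlrp2 fell 2.49-fold (-1.32 ± 0.17). In CPM the 9 genes other than Zbed3 ended at 8.89% to 41.4% of the zygote, and Zbed3 at 58.5%.

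The second comparison asked what inhibition of CBP/p300 does at each stage. In zygotes, 0 of the 10 genes were called, against 0.0657% of the 18258 genes tested called lower and 0.00548% called higher. With no fold cutoff 0 of the 10 passed the adjusted p, against 0.0876% and 0.011% of all genes. By edgeR, 2 had an unadjusted p under 0.05, Nlrp14 (log2 fold change 0.21 ± 0.06 SE, adjusted p = 0.59) and Nlrp5 (0.17 ± 0.06, adjusted p = 0.83), and DESeq2 called none. The other 8 lay between -0.09 (Ooep) and 0.12 (Tle6). The share of all genes with an unadjusted p under 0.05 was not computed. The FPKM of Tle6 did not overlap between A-485 and DMSO zygotes, but its effective length was 856 and 903 bases with A-485 and 1091 and 987 bases with DMSO.

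At early 2-cell, where A-485 had been present since 4 hpi, 0 of the 10 genes were called, against 7.9% of the 20872 genes tested called lower and 0.402% called higher. Zbed3 alone passed the adjusted p with no fold cutoff (log2 fold change 0.19 ± 0.04 SE, adjusted p = 0.0070), against 10.2% of all genes as lower and 1.77% as higher, and it did not pass with scaling to mitochondrial messenger RNA (0.18, adjusted p = 0.53). Its adjusted p was 0.052 without DMSO replicate 2 and 0.055 without A-485 replicate 1. An unadjusted p under 0.05 by edgeR was also found for Npm2 (0.24 ± 0.09, adjusted p = 0.11), Nlrp14 (-0.19 ± 0.08, adjusted p = 0.14) and Khdc3 (-0.81 ± 0.30, adjusted p = 0.12). That share was not computed for all genes. With the fold cutoff, none of the 10 was called by DESeq2 or by edgeR. Khdc3 rests on 1 library: its counts were 95.7 and 192 with A-485 and 249 and 225 with DMSO, and without A-485 replicate 2 it was called lower (-1.30 ± 0.34, adjusted p = 0.011).

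The 2-cell markers listed for comparison include Zscan4 and Tdpoz family genes of the minor wave. They were chosen with earlier results of these data known. The list also names Duxf3, Usp17lc and Usp17ld, which the paper reports as lower in A-485 zygotes. It is therefore no independent measure of how far these embryos were affected. Of 16 tested, 15 were called lower at early 2-cell after A-485, against 7.9% of all genes tested. Zscan4f was at -9.57 ± 0.36, Zscan4d at -8.03 ± 0.35 and Tdpoz4 at -7.94 ± 0.47 on the log2 scale. In the same libraries the median log2 fold change of the 10 maternal-effect genes was 0.04, and that of all genes tested 0.00.

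At late 2-cell, after A-485 had been washed out, 0 of the 10 genes were called, against 16.8% of the 22822 genes tested called lower and 10.5% called higher. Zbed3 was 1.57-fold higher than with DMSO (log2 fold change 0.65 ± 0.06 SE, adjusted p = 6.5e-06), and Ooep was 1.52-fold higher (0.60 ± 0.21, adjusted p = 0.044), the pair that passed the adjusted p, which 20.4% of all genes did as lower and 17.0% as higher. With scaling to mitochondrial messenger RNA both were lower (-0.33 ± 0.07, adjusted p = 0.0013, and -0.38 ± 0.24, adjusted p = 0.22). The call of Ooep at this threshold rests on DMSO replicate 1, without which its adjusted p was 0.21. The values were 0.63 ± 0.26 for Nlrp2 (adjusted p = 0.075) and 0.36 ± 0.14 for Nlrp5 (adjusted p = 0.066), whose unadjusted p was under 0.05. They were between -0.13 (Khdc3) and 0.20 (Nlrp14) for the other 6. With the fold cutoff, none of the 10 was called by DESeq2 or by edgeR.

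In FPKM, which is scaled to the total of a library, 7 of the 10 genes did not overlap between A-485 and DMSO at late 2-cell and all 7 were higher, against 42.3% of the 22822 genes tested that lay higher without overlap and 26.6% that lay lower. The exceptions were Padi6, Zar1 and Khdc3. TMM moved the median of all genes tested to 0.28 and total counts to 0.47, above the median of the 10 genes under the same scaling (0.17 and 0.36). With total counts 5 genes passed the adjusted p as higher, Zbed3 (0.84), Nlrp2 (0.82), Ooep (0.79), Nlrp5 (0.55) and Nlrp14 (0.39), as did 21.4% of all genes, and the last of these lay below the median of all genes. With mitochondrial messenger RNA, whose share was higher in these A-485 libraries, the median of all genes was -0.69 and all 10 genes were below 0, from -0.33 (Zbed3) to -1.09 (Khdc3), with Zar1 called lower (-1.01, adjusted p = 0.0041) along with 30.1% of all genes. Relative to the median of all genes in the TMM fit, Zbed3 stood 0.37, Nlrp2 0.35 and Ooep 0.33 above, and Tle6, Padi6, Zar1 and Khdc3 stood 0.24 to 0.41 below. The direction of any of these genes at late 2-cell is therefore given only under a named scaling.

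**Figure D3:**
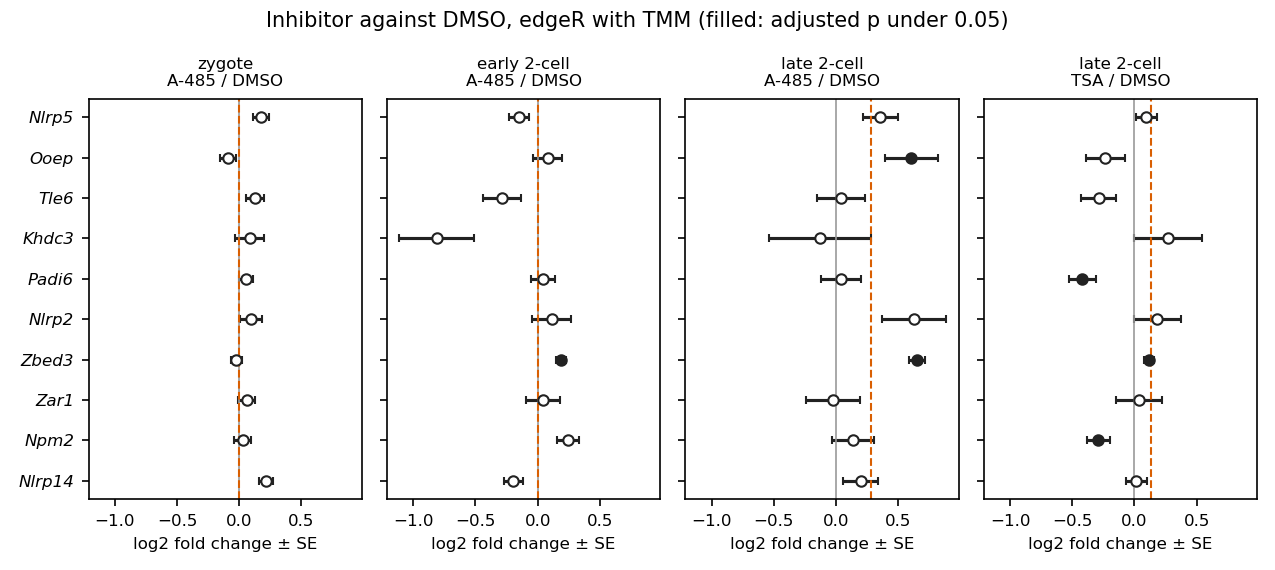
log2 fold change ± SE (n = 2 libraries per group, edgeR with TMM) of the 10 genes for A-485 against DMSO at 3 stages and TSA against DMSO at late 2-cell. Filled points have an adjusted p under 0.05, the solid line is 0 and the dashed line is the median of all genes tested, 0.28 for late 2-cell A-485, where the filled points of Zbed3 (0.65) and Ooep (0.60) are below 0 with scaling to mitochondrial messenger RNA. For TSA, Zbed3 (0.12) is also below 0 with that scaling, and Npm2 (-0.29) is above 0 with total counts.

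The third comparison asked what inhibition of histone deacetylases does at late 2-cell. With TSA 0 of the 10 genes were called, against 13.9% of the 23429 genes tested called lower and 13.8% called higher. Padi6 was lower (log2 fold change -0.42 ± 0.11 SE, adjusted p = 0.0099) and so was Npm2 (-0.29 ± 0.09, adjusted p = 0.029), while Zbed3 was higher (0.12 ± 0.04, adjusted p = 0.035), and 21.4% of all genes passed the adjusted p as lower and 21.7% as higher. The adjusted p of Padi6 was 0.68 with total counts (-0.06), 0.086 without DMSO replicate 1 and 0.067 without TSA replicate 2. Npm2 was at 0.07 with total counts and at 0.12 against the late 2-cell DMSO libraries of the A-485 experiment, so its direction turned. Zbed3 was at -0.06 with mitochondrial messenger RNA, at an adjusted p of 0.12 by DESeq2, and at 0.14, 0.076 and 0.22 without DMSO replicate 1, DMSO replicate 2 or TSA replicate 1.

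The other 7 genes lay between -0.29 ± 0.14 (Tle6) and 0.27 ± 0.27 (Khdc3) after TSA, with no unadjusted p under 0.05. With the fold cutoff, none of the 10 was called by DESeq2 or by edgeR. With total counts Zbed3 (0.47), Nlrp5 (0.45), Nlrp14 (0.37) and Nlrp2 (0.54) passed the adjusted p as higher, as did 32.0% of all genes. The median of all genes was 0.13 with TMM, 0.48 with total counts and -0.05 with mitochondrial messenger RNA, and that of the 10 genes was 0.02, 0.38 and -0.15.

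**Figure D4:**
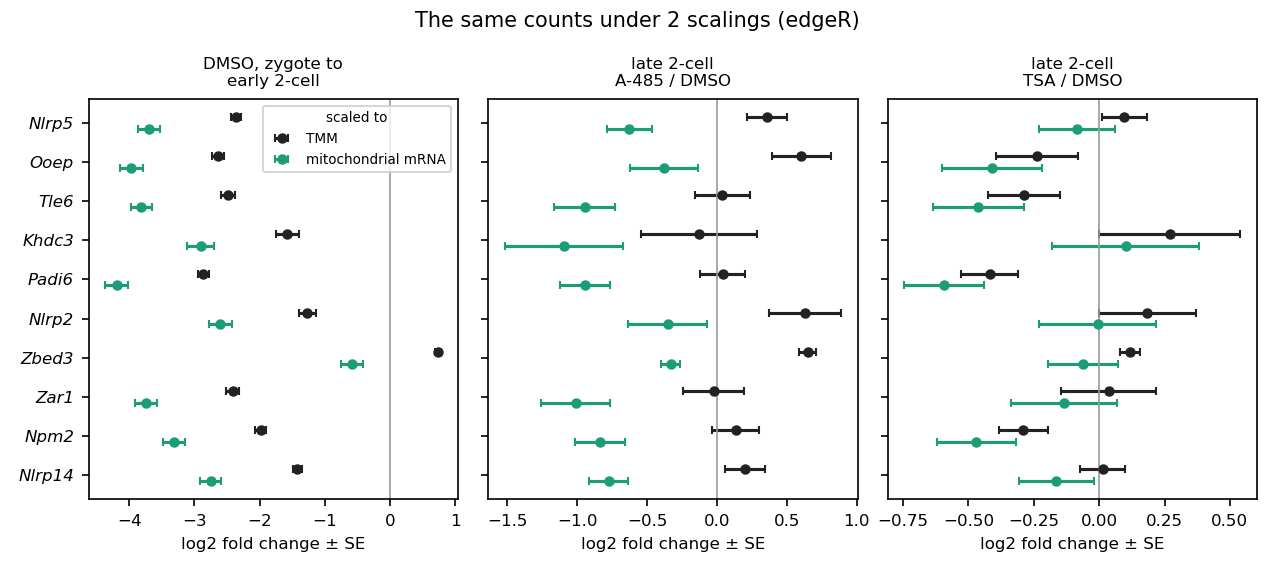
log2 fold change ± SE (n = 2 libraries per group, edgeR) of the 10 genes with TMM (black) and with scaling to the 13 mitochondrial messenger RNAs (green). In the left panel 9 genes are below -1 under both scalings and Zbed3 changes sign (0.75 and -0.58). In the middle panel, late 2-cell A-485, all 10 are below 0 with mitochondrial messenger RNA and 8 are above 0 with TMM.

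The 2 sets of late 2-cell DMSO libraries were compared as a control between experiments. Of the 10 genes 0 were called, against 0.136% of the 20647 genes tested called lower and 1.19% called higher, and 0 passed the adjusted p with no fold cutoff, against 0.688% and 1.68% of all genes. By edgeR 4 had an unadjusted p under 0.05, Zar1 (log2 fold change -0.56 ± 0.19 SE for the TSA experiment against the A-485 experiment, adjusted p = 0.20), Npm2 (0.33 ± 0.12), Nlrp14 (-0.31 ± 0.13) and Zbed3 (-0.16 ± 0.07), and DESeq2 called none. The share of all genes with such a p was not computed. The differences of Npm2 and Zbed3 between DMSO sets are as large as their differences with TSA.

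Markers of other cell types were summed in each library, because the zygotes came from cumulus-oocyte complexes fertilized with sperm. The 12 cumulus cell markers summed to 3.06 to 14.4 FPKM, of which 1 or 2 had a mean of at least 1 FPKM in a group, and in late 2-cell embryos to 8.89 to 14.4 with DMSO, 4.98 to 5.04 after A-485 and 5.79 to 5.99 with TSA. The 6 fibroblast markers summed to 0.13 to 1.73 FPKM, except in late 2-cell A-485 (14.2 to 16.4) and TSA (5.51 to 8.07) libraries, where Pdgfra was called higher after A-485 (log2 fold change 6.27 ± 0.31 SE) and 3 and 2 of the 6 were at 0 in both libraries. The 6 erythroid markers summed to 0 to 4.71 FPKM, except with TSA (44.6 to 46.75), where Hba-a2 was called higher (4.97 ± 0.39) and 3 of the 6 were at 0 in both libraries. The 8 sperm markers summed to 13.2 to 19.4 FPKM in zygotes, where 1 of the 8 had a mean of at least 1 FPKM, and 1.25 to 8.59 in 2-cell embryos. These move with the late inhibitor groups and with stage, and their part in the values of the 10 genes was not tested.

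The difference between stages in the A-485 effect was tested as an interaction over 8 libraries. For early 2-cell minus zygote 0 of the 10 were called, against 3.69% of the 23002 genes tested called lower and 0.313% called higher, but Nlrp14 was lower (log2 difference -0.35 ± 0.10 SE, adjusted p = 0.029) and Zbed3 higher (0.27 ± 0.07, adjusted p = 0.015) with no fold cutoff, against 4.65% and 1.0% of all genes. The difference of Zbed3 was -0.07 with mitochondrial messenger RNA. By edgeR 6 of the 10 had an unadjusted p under 0.05, a share that was not computed for all genes. With the fold cutoff, DESeq2 also called none.

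For late minus early 2-cell 0 were called, against 7.38% called lower and 7.6% called higher among 25141 genes tested. Nlrp5 (log2 difference 0.59 ± 0.16 SE, adjusted p = 0.011), Zbed3 (0.54 ± 0.08, adjusted p = 1.1e-05) and Nlrp14 (0.47 ± 0.17, adjusted p = 0.044) were higher with no fold cutoff, against 9.9% of all genes lower and 10.1% higher, and all 3 were lower with mitochondrial messenger RNA (-0.47, -0.51 and -0.57). The median of all genes tested was itself 0.44, so these 3 genes stood 0.15, 0.10 and 0.03 above it. By edgeR 4 had an unadjusted p under 0.05, a share that was not computed for all genes. With the fold cutoff, DESeq2 also called none.

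A-485 and TSA act on opposite sides of histone acetylation, and their effects at late 2-cell were compared as an interaction of the 2 experiments, though the times and durations of treatment differed. Of the 10 genes 0 were called, against 10.8% lower and 2.7% higher among the 26554 genes tested. Zbed3 responded more to A-485 than to TSA (log2 difference 0.42 ± 0.08 SE, adjusted p = 0.00082), against a median of -0.01 for all genes, and passed the adjusted p as 4.59% of all genes did as higher and 12.7% as lower. With mitochondrial messenger RNA the difference was -0.27 (adjusted p = 0.15). Ooep differed by 0.73 ± 0.27 (adjusted p = 0.077), and the other 8 by -0.51 ± 0.50 (Khdc3) to 0.35 ± 0.20 (Padi6). By edgeR 2 had an unadjusted p under 0.05, a share that was not computed for all genes. With the fold cutoff, DESeq2 also called none.

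The likeness of the courses was described by the Pearson correlation of log2(FPKM + 0.1) over the 16 libraries, whose points share stages and treatments, so no p is given. The 9 genes other than Zbed3 had correlations of 0.856 (Khdc3 with Nlrp2) to 0.989 (Ooep with Nlrp14) with each other. Zbed3 had correlations of 0.367 (Tle6) to 0.641 (Ooep) with them. Among 9429 genes with a mean of at least 10 FPKM in some group, those most like Zbed3 were Trappc2 (0.991), Oosp3 (0.990), an oocyte-secreted protein gene, and Dpy30 (0.990). Those most like Nlrp5 were Fbxw28 (0.996), Adss and Chdh, and those most like Ooep were Oas1e (0.997), Oas1c and Gm13084. For Tle6 they were Gm813 (0.991), Gspt2 and Atp2b1, for Padi6 Rubcn (0.992), Pabpn1l and Gspt2, for Zar1 Fbxw28 (0.990), Tsc22d1 and Tent5c. For Npm2 they were Rab3gap1 (0.995), Nudt7 and Lrrfip2, for Nlrp14 Gm36307 (0.992) and Efhc2, for Khdc3 Grb14 (0.978), Stk31 and Commd1, and for Nlrp2 Cmc1 (0.967), Prr5l and Enox1.

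Other genes, listed here with the Nlrp and Khdc families, did not share the early fall in number. Of 14 tested, 2 were called lower from DMSO zygotes to early 2-cell embryos, near the 14.9% of all genes. They were Nlrp9b (log2 fold change -1.72 ± 0.08 SE) and Nlrp4b (-1.05 ± 0.08). The median of the 14 was 0.00, while the median of Nlrp5, Ooep and the other 8 genes was -2.17. From early to late 2-cell, 9 of 14 were called lower and 1 higher, against 8.92% and 15.9% of all genes. Among the 9 were Nlrp4f (-2.69 ± 0.09), Nlrp4a (-2.65 ± 0.11) and Nlrp4g (-2.48 ± 0.14). The median of the 14 was -2.08, against -0.90 for the 10 genes. At late 2-cell after A-485, 2 of 15 were called lower, Dppa5a (-2.89 ± 0.29) and Khdc4 (-1.11 ± 0.15), and 1 higher. With TSA 2 of 14 were called lower, again Dppa5a (-2.19 ± 0.15) and Khdc4 (-1.52 ± 0.10). Of all genes tested, 16.8% were called lower and 10.5% higher after A-485, and 13.9% lower with TSA. The counts called lower are near these shares. Members of these families are similar in sequence, so reads may be split among them.

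Of 27 other maternal-effect genes, 8 were called lower from DMSO zygotes to early 2-cell embryos, against 14.9% of all genes. Among them were Zar1l (log2 fold change -4.07 ± 0.12 SE), the paralog of Zar1, and Dnmt1 (-3.09 ± 0.10), the maintenance DNA methyltransferase. Nobox (-2.07 ± 0.09), an oocyte transcription factor, was another. After A-485, 1 of 27 was called lower at early 2-cell, Trim28 (-1.41 ± 0.14), against 7.9% of all genes. At late 2-cell 10 were, against 16.8%, among them Trim28 (-3.80 ± 0.15), Ago2 (-2.74 ± 0.16) and Dppa3 (-2.41 ± 0.14). With TSA 8 were called lower and 1 higher, against 13.9% and 13.8% of all genes. Among those lower were Ago2 (-2.37 ± 0.12), Pms2 (-2.21 ± 0.12) and Smarca4 (-2.06 ± 0.07). The median of these 27 was -0.68 after A-485 and -0.47 with TSA at late 2-cell, against 0.17 and 0.02 for Nlrp5, Ooep and the other 8. Ago2 and Pms2 had risen from DMSO early to late 2-cell (2.72 ± 0.14 and 2.57 ± 0.18), which none of the 10 genes did.

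Of 30 other oocyte transcripts, 13 were called lower and 2 higher from DMSO zygotes to early 2-cell embryos, against 14.9% and 11.2% of all genes. From early to late 2-cell 9 were called lower, against 8.92% of all genes. Rgs2 (log2 fold change -3.48 ± 0.09 SE), Oosp2 (-2.49 ± 0.13) and Fbxw15 (-2.32 ± 0.11) fell in the first step, and Rfpl4 (-2.87 ± 0.09), Oosp3 (-2.64 ± 0.12) and Bcl2l10 (-2.62 ± 0.10) in the second, as Zbed3 did (-2.30). At late 2-cell 2 were called lower and 3 higher after A-485, against 16.8% and 10.5% of all genes. Among these were Rgs2 at 1.76 ± 0.20, Tcl1 at 1.41 ± 0.12 and Ccnb1 at -1.45 ± 0.11. With TSA 3 of the 30 were called lower, against 13.9% of all genes.

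Open chromatin at the promoters of the 10 genes was read from the ATAC-seq peaks, given as a single list for the 2 replicates of a group. The paper describes its peaks as optimal and replicated under IDR, a filter on reproducibility between replicates. A peak present in a group and not in another still has no replicate test of that difference. A promoter peak lay within 1 kb of an annotated start site. In late 1-cell DMSO embryos 3 of the 10 genes had one, Nlrp2, Npm2 and Tle6, against 26.2% of 21951 protein-coding genes. In late 1-cell A-485 embryos 2 did, Npm2 and Tle6, against 24.7%. In early 2-cell DMSO embryos 3 did, Padi6, Tle6 and Zbed3, against 31.7%, and in early 2-cell A-485 embryos 3 did, Nlrp2, Nlrp5 and Npm2, against 40.9%. The lists held 10214, 7094, 27693 and 13712 peaks in this order, and these shares are near the background.

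Tle6 had a peak over its start site in 3 of the 4 groups, with a fold enrichment of 6.73 and a -log10 q of 37.3 in late 1-cell DMSO, 8.34 and 48.5 in late 1-cell A-485 and 8.54 and 45.5 in early 2-cell DMSO embryos. The peak of Zbed3 in early 2-cell DMSO embryos (chr13:95323241-95323698, fold enrichment 7.57, -log10 q 22.5) covered its annotated start. The peak of Nlrp5 in early 2-cell A-485 embryos (chr7:23385679-23386055, 12.4 and 30.6) had the highest fold enrichment of the 10 genes. Nlrp2 had peaks in late 1-cell DMSO (6.27 and 15.1) and early 2-cell A-485 embryos (9.63 and 20.3), and the peak of Padi6 lay at an internal start site (chr4:140732824-140734024, 6.41 and 40.3). Npm2 had peaks of 8.18 and 20.8 in late 1-cell DMSO and of 6.28 and 13.2 in early 2-cell A-485 embryos, and 2 weak ones in late 1-cell A-485 embryos (4.23 and 4.81).

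The 4 promoter windows that overlap these peaks are printed from RefSeq (GRCm38.p6), each 250 bases before to 50 after a start site, on the strand of the gene. Capitals mark E-boxes (CANNTG), letters bound by basic helix-loop-helix factors such as FIGLA of the oocyte, and NOBOX elements (TAATTG or TAATTA), searched on both strands, and no 2 marked motifs overlap in these windows.
Nlrp2 (chr7:5350986-5351285, minus strand): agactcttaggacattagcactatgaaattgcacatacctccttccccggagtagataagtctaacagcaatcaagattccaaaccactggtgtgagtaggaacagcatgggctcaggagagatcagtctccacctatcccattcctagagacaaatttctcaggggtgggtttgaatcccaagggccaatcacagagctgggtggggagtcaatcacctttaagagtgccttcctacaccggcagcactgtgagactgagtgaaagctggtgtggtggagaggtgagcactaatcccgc
Nlrp5 (chr7:23385639-23385938, plus strand): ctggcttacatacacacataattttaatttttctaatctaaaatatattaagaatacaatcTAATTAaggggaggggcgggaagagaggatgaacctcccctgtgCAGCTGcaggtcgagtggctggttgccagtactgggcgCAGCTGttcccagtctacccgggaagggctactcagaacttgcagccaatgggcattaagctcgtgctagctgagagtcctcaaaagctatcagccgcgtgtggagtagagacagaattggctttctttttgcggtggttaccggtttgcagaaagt
Tle6 (chr10:81600851-81601150, minus strand): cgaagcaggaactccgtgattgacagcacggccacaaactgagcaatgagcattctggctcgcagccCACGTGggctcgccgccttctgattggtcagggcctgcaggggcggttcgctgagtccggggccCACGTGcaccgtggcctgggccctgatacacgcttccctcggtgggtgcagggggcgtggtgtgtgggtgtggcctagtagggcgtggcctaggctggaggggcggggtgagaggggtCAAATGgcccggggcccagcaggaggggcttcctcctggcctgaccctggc
Zbed3 (chr13:95323355-95323654, plus strand): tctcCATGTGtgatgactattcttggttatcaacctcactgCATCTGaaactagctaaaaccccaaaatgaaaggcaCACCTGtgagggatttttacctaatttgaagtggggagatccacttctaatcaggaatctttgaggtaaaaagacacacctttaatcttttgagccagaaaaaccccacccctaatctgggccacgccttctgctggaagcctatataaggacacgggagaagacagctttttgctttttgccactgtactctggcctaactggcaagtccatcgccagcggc
The table held 12 windows of 8 of the genes and none under the names Npm2 or Nlrp14. An E-box was found in 11 of the 12 windows, all but that of Nlrp2, against 72.3% of 32851 windows of this length. A NOBOX element was found in 3 windows, of Nlrp5, Ooep and Padi6, against 12.4% of all. The TATA box TATAAA was in 2 of the 12 (13.6% of all), in other windows of Nlrp5 and Zbed3, and the GC box GGGCGG in 5 (35.7% of all). The Tle6 window had a GC content of 68% and 18 CpG, against 45.7% and 4 for Zbed3, 48% and 9 for Nlrp5 and a median of 52.7% and 7 over all windows.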

How the data were processed

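Total RNA-seq libraries of mouse embryos (8 groups of 2) and ATAC-seq peaks of 4 groups were analysed. The CUT&RUN samples were not analysed here. The members and the gene lists were chosen with earlier results of these data known. RNA libraries were made with the SMART-Seq Stranded kit and sequenced paired-end. Per the study's methods and the submitters' processing notes, reads were trimmed with Trimmomatic 0.39, aligned to GRCm38 with STAR 2.7.8a and quantified with RSEM 1.3.1, and DESeq2 1.32.0 was used by the authors. The annotation version and whether counting used strand are not given in the sources used here.

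The deposited expected counts and FPKM values of the authors were used as they are, with expected counts rounded to whole numbers for the count tests, and effective lengths and posterior standard deviations from the same deposited tables. Of 55385 gene identifiers, 55144 matched GENCODE M21 symbols. The authors' ATAC peak lists cover both replicates of a group together, and the paper describes its peaks as optimal and replicated under IDR. The deposited fold enrichment (ratio) and -log10 q-values of these lists were used. The build of the peak lists is not stated with that step, and the labels name GRCm38 and mm10, which share coordinates.

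Genes whose libraries in a comparison held 10 counts or more in sum were tested with edgeR 4.0.16 (glmQLFTest, TMM) in R 4.3.3, with Benjamini-Hochberg adjustment over all of them, and SE is the log2 fold change divided by the root of F. A call took an adjusted p below 0.05, a change of 2-fold or more and an average of 1 FPKM or more in a group. Stage and treatment comparisons were fitted on the libraries compared, and interactions on the 8 libraries concerned. The 2 pairs of late 2-cell DMSO libraries were assigned to the A-485 or TSA experiment by the form of their titles. The early 2-cell titles have the form of the TSA experiment, and no fit took account of this. Other fits used DESeq2 1.42.0, total counts, the 13 mitochondrial messenger RNAs as scale, no filter on low counts, all 16 libraries, a replicate block, the other DMSO libraries, and each library left out in turn. Scripts were tested on simulated data. Tables were handled in Python 3.11.15 with pandas 2.3.3.

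All 10 genes are named in every comparison. Of each other list, at most 3 called genes with the largest fold change, no overlap and a mean of at least 10 FPKM in the higher group are named, and for each of the 10 genes the 3 others with the highest Pearson correlation, of which 1 is not reported here. The 3′ ends come from the annotated transcripts and the promoters from the RefSeq table of GRCm38.p6.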

Additional observations from a re-analysis of the deposited data

Results flagged for a closer look

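The 6 differences given here, each between effects of a treatment, passed an adjusted p of 0.05 in the edgeR interaction fits, with 2 libraries per group, and none reached a 2-fold difference. The log2 A-485 effect at early 2-cell minus that in zygotes was -0.35 for Nlrp14 and 0.27 for Zbed3, and 6 and 8 of 14 alternative fits passed the same threshold. The effect at late minus early 2-cell was 0.59 for Nlrp5, 0.47 for Nlrp14 and 0.54 for Zbed3, where the median of all genes was 0.44, and 8, 5 and 14 of 14 alternative fits passed. The effect of A-485 minus that of TSA at late 2-cell was 0.42 for Zbed3, and 13 of 14 alternative fits passed. Of these 6 differences, 5 changed sign with scaling to mitochondrial messenger RNA, the exception being that of Nlrp14 at early 2-cell, so passing does not mean the same direction.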

How the results depend on the processing

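The fall of 9 genes from DMSO zygotes to early 2-cell embryos and of all 10 to late 2-cell embryos was called with DESeq2, total counts, mitochondrial messenger RNA, no filter, all 16 libraries and each library left out. From DMSO early to late 2-cell, leaving out a library gave 3 to 5 genes called lower, against 4. With 2 libraries per group and 85 to 249 counts of Khdc3 in 2-cell embryos, its differences between treatments are the least precise.

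With the adjusted p alone, members called were 1 higher at early 2-cell after A-485, 2 higher at late 2-cell after A-485, 2 lower and 1 higher with TSA, 1 higher from DMSO zygote to early 2-cell and 6 lower from early to late 2-cell with A-485. For the interactions they were 1 lower and 1 higher (early 2-cell minus zygote), 3 higher (late minus early 2-cell) and 1 higher (A-485 minus TSA). Leaving out a library gave 0 to 1 genes called lower at early 2-cell after A-485 and 0 to 1 in the early 2-cell minus zygote interaction, the 1 being without A-485 replicate 2 of early 2-cell. Total counts gave 0 higher from A-485 zygote to early 2-cell and 1 lower from early to late 2-cell. Of all genes tested, 980 of 19858 and 966 of 22854 were so called. Mitochondrial messenger RNA gave 0 and 9 for these, against 289 of 19858 and 6178 of 22854 genes tested. It gave 1 lower at late 2-cell after A-485, against 6874 of 22822 genes tested. In the early minus zygote and late minus early interactions it gave 1 and 2 lower, against 1409 of 23002 and 5380 of 25141 genes tested.

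With mitochondrial messenger RNA 41 log2 differences changed sign, of which 22 passed the adjusted p under neither scaling, Nlrp2 at late 2-cell after A-485 (-0.35) among them. Those that passed under at least 1 were at late 2-cell after A-485 for Nlrp5 (-0.63), Ooep (-0.38), Tle6 (-0.95), Padi6 (-0.94), Zbed3 (-0.33), Npm2 (-0.84) and Nlrp14 (-0.77), with TSA for Zbed3 (-0.063), from zygote to early 2-cell for Zbed3 (-0.58 with DMSO, -0.65 with A-485) and from early to late 2-cell with A-485 for Tle6 (-0.81). They were also the early minus zygote interaction of Zbed3 (-0.070), the late minus early ones of Nlrp5 (-0.47), Padi6 (-0.97), Zbed3 (-0.51), Zar1 (-1.04) and Nlrp14 (-0.57), and the A-485 minus TSA ones of Zbed3 (-0.27) and Nlrp14 (-0.61). With total counts 10 changed sign, of which 9 passed under neither scaling and 1, the TSA effect on Npm2 (0.066), under TMM. The latter also turned with the other late 2-cell DMSO libraries (0.12). The cause was not tested.

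Keeping peaks above the median q left 1 promoter each in late 1-cell DMSO, late 1-cell A-485 and early 2-cell A-485 embryos. The shares of all protein-coding genes were 17.3%, 15.3% and 27.2%. In early 2-cell DMSO embryos it left 2, against 21.7%. A window of 2.5 kb gave 5 in early 2-cell DMSO embryos, against 36.9% of all protein-coding genes. The correlation of replicate differences was -0.098 to 0.058 in 27 of 28 pairs of groups and 0.479 between DMSO and TSA of the TSA experiment, whose same-numbered libraries deviated together. No label says that a number marks a shared culture or day, and 2 replicates are too few to settle a pairing. With the replicate block Padi6, Npm2 and Zbed3 passed the adjusted p with TSA (0.00077, 0.0145 and 0.0086) as without it, and 9, 4 and 10 genes were called lower from DMSO zygote to early, early to late and zygote to late 2-cell, as without it. Of the counts of members recomputed, 329 stayed within 1.5 times the main count and 23 did not. A main count of 0 that stayed 0 is among the 329. The main count was 0 in every inhibitor comparison and interaction, so this tally is a weak measure of stability.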
